A study of Mus musculus with 6 samples.

Results

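The livers of CgA-KO mice held less RNA of 3 genes that turn sugar and acetyl units into lipid. These were Pklr, Thrsp and Aacs, in a group of 8 genes that covers the glucose-sensing transcription factor ChREBP, its partner, its targets and the cytosolic supply of acetyl-CoA. The 8 genes are Mlxipl, Mlx, Pklr, Khk, Thrsp, Pnpla3, Acss2 and Aacs. They were chosen by symbol for what they are known to do, with earlier results of these data known, and all 8 were found among the 32212 rows of the gene count table. After a filter on low counts 7 of them were tested, among 13867 genes in all. Pnpla3 was not, since it had at most 10 counts in any library.

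The comparison was between the livers of 3 WT and 3 CgA-KO male mice, all 2 yr old, on a C57BL/6 background and on a normal chow diet. CgA-KO mice lack chromogranin A, the prohormone encoded by Chga, throughout the body and throughout life. Poly(A)-selected RNA of each liver was sequenced as 1 library. The labels give neither the clock hour of tissue collection nor the feeding state of the mice. Chga had 0 counts in all 6 libraries, where 3 counts would be a level of 0.0951 to 0.269 CPM (counts scaled to a common library size), so the targeted gene cannot check the genotype labels in liver. Total counts ran from 10558616 in WT replicate 1 to 31087453 in WT replicate 2. Sampling noise did not account for the differences between replicates (chi-square of at least 31.9 per degree of freedom in each pair), and each library was counted as a separate sample. Levels are CPM scaled with TMM factors, and errors are SD over 3 livers. The floor of 3 counts covers counting error only, while the intervals of fold changes include the spread between livers.

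ChREBP, which Mlxipl encodes, is the transcription factor that carries the signal of sugar metabolites to the genome. It binds DNA together with Mlx, at paired E-box-like sequences called carbohydrate response elements (ChoRE), and the liver-type pyruvate kinase gene Pklr is its classical target. Fructose enters the same route through ketohexokinase, the product of Khk. The products, pyruvate and then acetyl-CoA, feed the synthesis of fatty acids and cholesterol, and Thrsp (Spot14) and Pnpla3 are genes that rise with carbohydrate feeding. Acss2 and Aacs encode the cytosolic enzymes that activate acetate and acetoacetate, and both are also known targets of the SREBP factors, which control fatty acid and sterol synthesis.

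Because Pklr is the reference target of ChREBP and Mlxipl is the factor's own gene, the sequence before their starts is shown here, from RefSeq on GRCm38, plus strand, 5′ to 3′. Windows of 250 bases before the annotated start were found for all 8 genes, 10 windows in all, and searched on both strands for the E-box CACGTG, the sterol response element form TCACNCCAC and the ChoRE consensus. Capitals mark the match in each stretch, and stretches stop before the first annotated exon base. The first, chr3:89136373-89136571, precedes the inner Pklr start, lies within an intron of longer Pklr transcripts and holds a ChoRE match 170 bases before that start. The second, chr5:135089640-135089889, precedes the outer Mlxipl start and holds an E-box 98 bases before it. The third, chr5:135106641-135106890, precedes the inner Mlxipl start and holds a match to the sterol response element form 136 bases before it.
Pklr, inner start: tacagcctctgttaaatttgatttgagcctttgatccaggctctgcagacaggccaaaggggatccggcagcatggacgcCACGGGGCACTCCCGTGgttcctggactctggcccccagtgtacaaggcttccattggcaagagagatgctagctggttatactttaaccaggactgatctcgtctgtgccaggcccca
Mlxipl, outer start: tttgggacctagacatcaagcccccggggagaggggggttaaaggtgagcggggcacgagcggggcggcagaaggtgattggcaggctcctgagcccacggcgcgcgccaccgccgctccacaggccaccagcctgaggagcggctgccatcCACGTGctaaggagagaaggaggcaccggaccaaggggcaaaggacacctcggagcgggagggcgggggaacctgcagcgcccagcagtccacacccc
Mlxipl, inner start: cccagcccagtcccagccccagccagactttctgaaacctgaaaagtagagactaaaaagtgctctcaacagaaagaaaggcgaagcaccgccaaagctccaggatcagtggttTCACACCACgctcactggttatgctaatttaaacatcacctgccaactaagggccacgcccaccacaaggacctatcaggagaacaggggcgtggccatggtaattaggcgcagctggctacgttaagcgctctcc

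A ChoRE match was present in 32 of 32851 windows of this length (0.0974%), a match to the sterol response element form in 1.05% and an E-box in 6.02%. E-boxes were also found in the windows of Khk, 71 bases before its RefSeq start at 30921559, and Mlx, 40 bases before its RefSeq start at 101087290. Both starts lie inside the GENCODE gene bounds given with these genes, and the Khk match does too. No match overlapped another. The windows of Thrsp, Acss2, Aacs and Pnpla3 and that of the outer Pklr start held none of these letters, which says nothing of sites elsewhere. The counts are given per gene, so they do not show which start of Pklr or Mlxipl was used.

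With edgeR's quasi-likelihood test, adjusted by Benjamini-Hochberg over all genes tested, 3 of the 7 genes were called at an adjusted p-value under 0.05, all lower in CgA-KO. Over all genes tested, 12.4% were called, 3.84% as lower and 8.60% as higher. All 7 log2 fold changes were below 0, against 50.6% of all genes tested, and their median was -0.96 against -0.01. Since the genes were chosen with earlier results known, these shares describe them beside all genes and are no test of the group. In 5 of the 7, Pklr, Khk, Thrsp, Acss2 and Aacs, every CgA-KO library lay below every WT library, which was seen in 14.6% of all genes tested. Genes without overlap, over all genes tested and in either direction, made up 33.6%. The exact permutation test (two-sided) of these 5 genes gave p = 0.1 each, the smallest p that 3 livers a genotype allow. Any gene without overlap gets this value, so it restates the lack of overlap and adds no evidence to it. For the genes that overlapped, the exact permutation test (two-sided) gave p = 0.2 (Mlxipl), 0.3 (Mlx) and 0.5 (Pnpla3). The 8 genes together took 0.0933 to 0.138% of a WT library's counts and 0.0572 to 0.0635% of a CgA-KO library's. In bulk tissue, fewer cells of a type and less RNA per cell cannot be told apart.

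**Figure D1:**
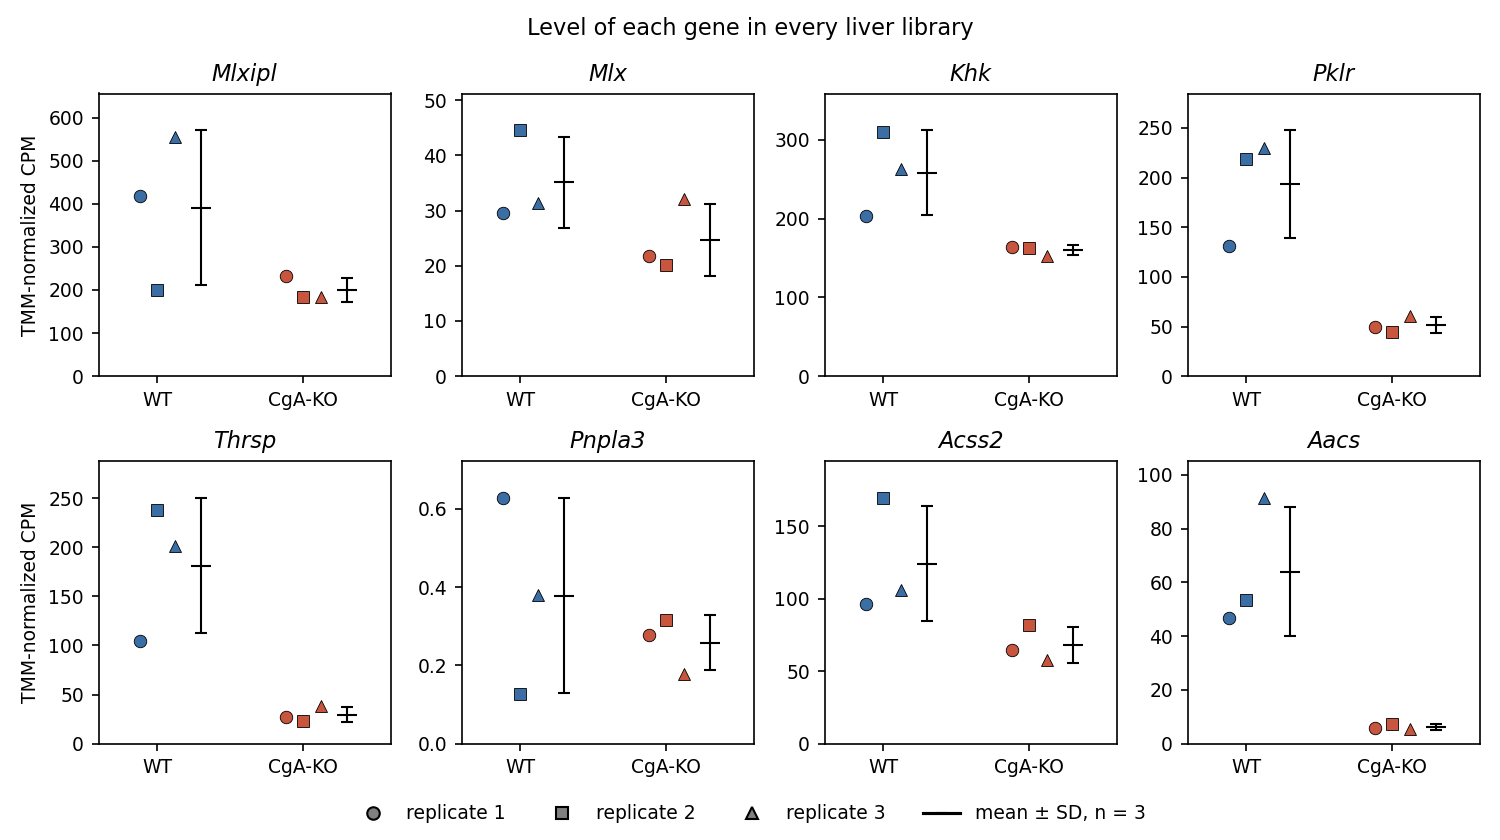
Level of each of the 8 genes in every library, as TMM-normalized CPM on a linear axis from 0, with WT in blue, CgA-KO in red, a marker shape for each replicate and the mean ± SD of 3 livers beside them. Pklr, Khk, Thrsp, Acss2 and Aacs do not overlap between the genotypes, while in Mlxipl WT replicate 2 falls to the level of the CgA-KO libraries.

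Mlxipl (chromosome 5, 135089890 to 135138382, plus strand of GRCm38) was at 418, 199 and 555 CPM in WT replicates 1, 2 and 3. It was at 233, 185 and 183 CPM in the CgA-KO replicates. WT replicate 2 was below CgA-KO replicate 1, so the genotypes overlapped, and the other WT livers were well above all CgA-KO livers. Mean levels of 391 ± 179 and 200 ± 28.2 CPM (SD, n = 3 each) gave a log2 fold change of -0.96 with a 95% interval from -1.76 to -0.17. The call was missed in edgeR's quasi-likelihood test (adjusted p = 0.108). It was made without WT replicate 2, at -1.28 (adjusted p = 0.0266), and with DESeq2 on all libraries (adjusted p = 0.0288).

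Mlx (chromosome 11, 101087277 to 101092207, plus strand), the partner through which ChREBP binds DNA, had 29.6, 44.5 and 31.3 CPM in WT livers against 21.9, 20.1 and 32.0 CPM in those of CgA-KO mice. CgA-KO replicate 3 was above 2 of the WT livers. The log2 fold change was -0.51, with a 95% interval from -1.06 to 0.03 (edgeR adjusted p = 0.195), and no setting called it. Exons of Mlx share 19.4% of their bases with Psmc3ip on the other strand, a gene with at most 12 counts in any library.

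Among the genes of sugar entry and breakdown, Khk (chromosome 5, 30921431 to 30931248, plus strand), which phosphorylates fructose, was at 203, 310 and 263 CPM in WT. In CgA-KO livers it was at 164, 163 and 152 CPM, all below the lowest WT liver and closer together than the WT values. The log2 fold change was -0.69 (95% interval -1.19 to -0.20), and Khk missed the call in edgeR's quasi-likelihood test (adjusted p = 0.0723). DESeq2 called it (adjusted p = 0.0132), as did edgeR without WT replicate 1, the WT liver with the lowest Khk, at -0.80 (adjusted p = 0.0375).

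Pklr (chromosome 3, 89136142 to 89146784, plus strand), which makes pyruvate in the last step of glycolysis, was at 131, 219 and 230 CPM in WT. The CgA-KO livers had 49.9, 44.4 and 60.2 CPM. All were under the WT liver with the least Pklr, and the mean fell from 193 ± 54.3 to 51.5 ± 8.04 CPM (SD, n = 3 each). On the log2 scale this was -1.91 with a standard error of 0.264 (edgeR adjusted p = 0.0052), which leaves 26.7% of the WT mean. Pklr exons share 23.4% of their bases with Hcn3 on the opposite strand, which was under 1 CPM in each library (means of 0.547 ± 0.171 and 0.368 ± 0.204 CPM).

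Thrsp (chromosome 7, 97412938 to 97417730, minus strand), whose product promotes fatty acid synthesis, was at 105, 238 and 201 CPM in WT. It was at 27.1, 23.4 and 37.9 CPM in CgA-KO livers. The highest CgA-KO liver was thus below the lowest WT liver, WT replicate 1, by a wide margin. The mean fell from 181 ± 68.9 to 29.5 ± 7.50 CPM (SD, n = 3 each). The log2 fold change, -2.62 with a standard error of 0.338 (edgeR adjusted p = 0.0044), corresponds to a 6.16-fold lower level.

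Pnpla3 (chromosome 15, 84167837 to 84187236, plus strand), which encodes a lipid-droplet protein and rises with refeeding in mouse liver, was nearly silent here. It had 7, 3 and 9 counts in the WT libraries and 6, 10 and 4 in the CgA-KO libraries. The genotypes overlapped, with 0.379 ± 0.250 against 0.258 ± 0.0711 CPM (SD, n = 3 each). With every gene of at least 1 count tested, edgeR's log2 fold change was -0.45 (adjusted p = 0.77), so a difference was not detectable at this depth.

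Of the acetyl-CoA genes, Acss2 (chromosome 2, 155517948 to 155585724, plus strand), which makes acetyl-CoA from acetate, was at 96.5, 170 and 106 CPM in WT livers. Its CgA-KO levels were 64.8, 81.5 and 57.7 CPM. The genotypes did not overlap, but WT replicate 2 stood above the other WT livers. The log2 fold change was -0.87 (95% interval -1.46 to -0.28), and the call was missed in edgeR's quasi-likelihood test (adjusted p = 0.0616). It was made with DESeq2 (adjusted p = 0.0152), without WT replicate 1 at -0.98 (adjusted p = 0.0373) and with the replicate number as a block (adjusted p = 0.0432).

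Aacs (chromosome 5, 125475814 to 125517410, plus strand), which activates acetoacetate so that ketone bodies can be used for sterol and fatty acid synthesis in the cytosol, had the largest difference of the 7. The WT livers had 46.9, 53.6 and 91.5 CPM, and the CgA-KO livers 5.66, 7.42 and 5.33 CPM. Every WT liver was several times above every CgA-KO liver. The mean fell from 64.0 ± 24.0 to 6.14 ± 1.12 CPM (SD, n = 3 each). The log2 fold change was -3.38, with a 95% interval from -4.05 to -2.71 (edgeR adjusted p = 0.0022). The level was 10.4-fold lower, and Aacs ranked 8 among the 13867 genes by p-value.

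**Figure D2:**
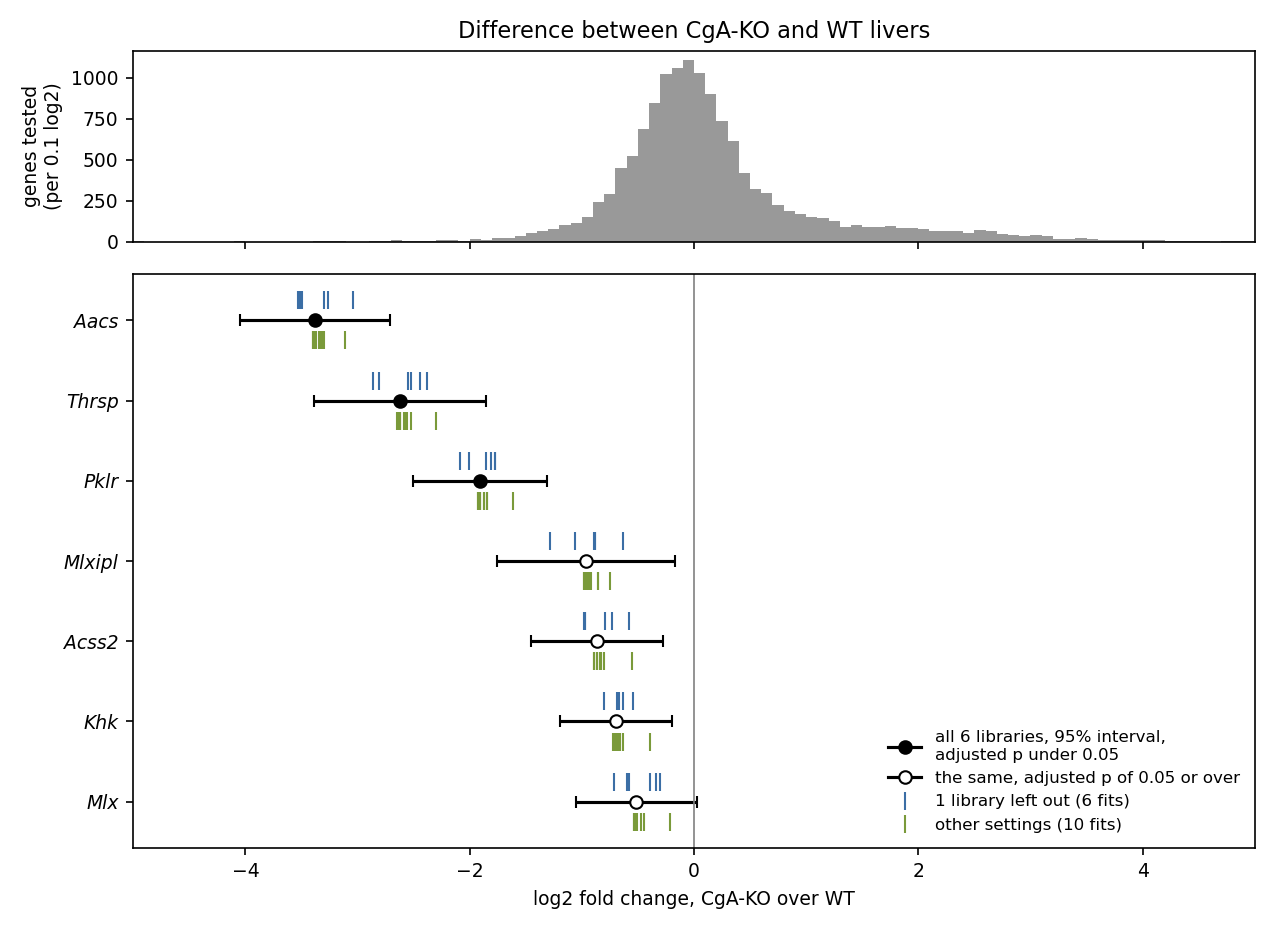
Lower panel: log2 fold change of each tested gene, CgA-KO over WT, as a point with its 95% interval, filled where the adjusted p-value was under 0.05, with blue ticks for the 6 fits that left out 1 library and green ticks for the 10 other settings. Upper panel: the number of all genes tested per 0.1 of log2 fold change. Pklr, Thrsp and Aacs keep to values below -1.5 in every fit shown, while Mlx comes as near to 0 as -0.21.

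The calls of Pklr, Thrsp and Aacs were kept in all 16 other settings, including every fit without 1 library and a threshold of 0.01. Their log2 fold changes ran from -2.09 to -1.61, from -2.86 to -2.30 and from -3.53 to -3.04. The number of the 7 called was 6 with DESeq2, which called 17.2% of the genes it tested (6.35% as lower), 5 without WT replicate 1 and 3 or 4 otherwise. Mlx was the 1 of the 7 that DESeq2 did not call. With scaling by library size alone the median of all genes moved from -0.01 to 0.26 and that of these genes from -0.96 to -0.75, and all 7 stayed below 0.

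Per kilobase of exon, a scale on which genes can be compared with each other, the order of levels in WT livers was Khk (150 ± 31.2 CPM per kb), Thrsp (142 ± 54.0), Mlxipl (108 ± 49.5), Pklr (63.5 ± 17.9), Acss2 (32.5 ± 10.4), Aacs (19.8 ± 7.42), Mlx (17.7 ± 4.12) and Pnpla3 (0.288 ± 0.190). The ranges of mean ± SD of neighbours in this order overlapped, except those of Pklr and Acss2 and of Mlx and Pnpla3. In CgA-KO livers the levels per kilobase were 93.0 ± 3.86 for Khk, 55.3 ± 7.78 for Mlxipl, 23.1 ± 5.88 for Thrsp, 17.8 ± 3.20 for Acss2, 16.9 ± 2.64 for Pklr, 12.4 ± 3.24 for Mlx, 1.90 ± 0.346 for Aacs and 0.197 ± 0.0542 for Pnpla3. Khk remained at the top, while Thrsp and Pklr came down to the level of Acss2, and Aacs to well below Mlx. Here the ranges overlapped for Thrsp and Acss2, Acss2 and Pklr, and Pklr and Mlx.

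The genes varied less among CgA-KO than among WT livers, in all but Mlx. How many of all genes tested did so was not determined, so this is not shown to be particular to these genes. The coefficient of variation of Khk was 20.7% in WT and 4.15% in CgA-KO, and that of Mlxipl 45.9% and 14.1%. WT replicate 1, the library with the fewest counts, was the lowest WT library in 6 of the 7 tested genes. Mlxipl was the exception, lowest in WT replicate 2, the library in which Mlx, Khk, Thrsp and Acss2 were highest. Pklr and Aacs were highest in WT replicate 3, as Mlxipl was. Over all genes tested, the share lowest in WT replicate 1 was not determined, so that order is not shown to be particular to these genes.

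Ratios of counts within a library do not depend on how libraries are scaled, and the pairs given here were picked after the values were seen. Counts of Aacs per count of Acss2 were 0.487, 0.316 and 0.862 in WT and 0.0875, 0.0910 and 0.0924 in CgA-KO livers. Aacs and Acss2 thus did not fall by the same factor. Counts of Pklr per count of Khk were 0.644, 0.707 and 0.875 in WT and 0.303, 0.273 and 0.395 in CgA-KO. Neither ratio overlapped between the genotypes. Thrsp per Mlxipl was 0.250, 1.20 and 0.362 in WT and 0.116, 0.127 and 0.207 in CgA-KO, also without overlap. Pklr per Mlxipl overlapped, with 0.312, 1.10 and 0.414 against 0.214, 0.240 and 0.328, and so did Mlx per Mlxipl.

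**Figure D3:**
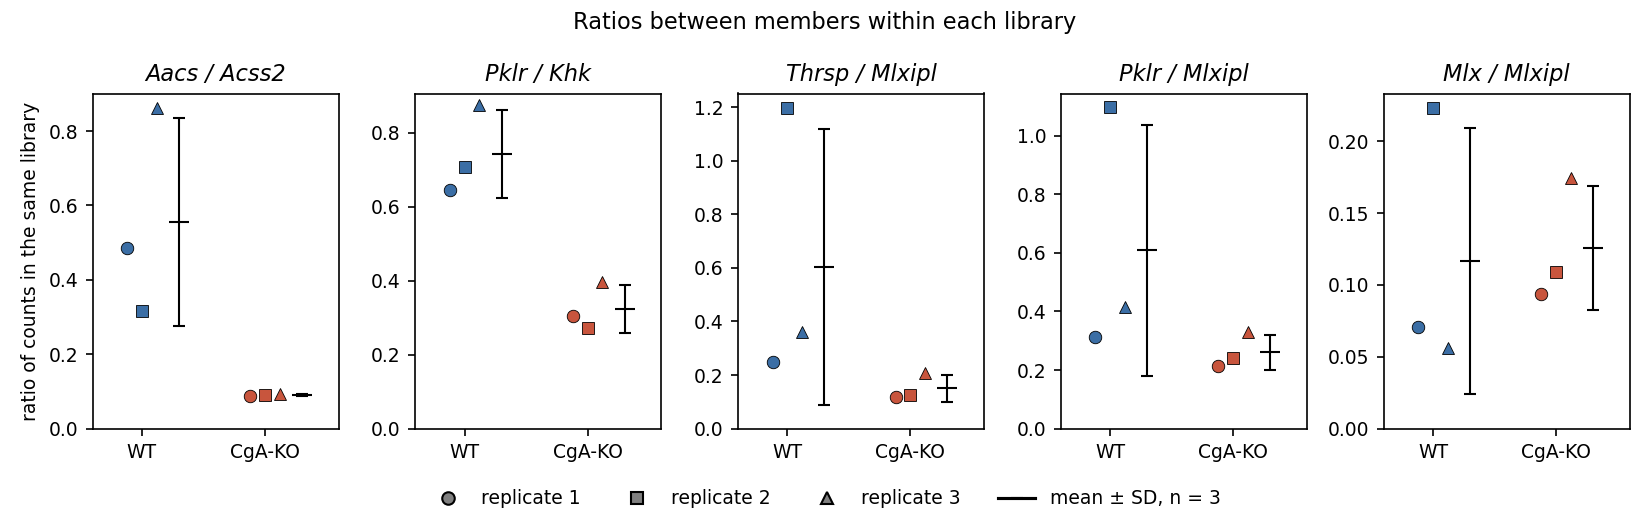
Ratio of the counts of 5 gene pairs within each library, WT in blue and CgA-KO in red, with the mean ± SD of 3 livers beside the points and axes from 0. The CgA-KO livers lie below all WT livers for Aacs per Acss2, Pklr per Khk and Thrsp per Mlxipl, and WT replicate 2 stands apart in each ratio to Mlxipl.

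Likeness of pattern was measured as the root mean square difference of log2 CPM over the 6 libraries, each gene centred on its own mean. The measure takes in the difference between genotypes, so a near gene is in part one with a like fold change. The log2 fold changes of Ak4 and Stard4, for example, were -1.83 and -1.91, beside -1.91 for Pklr. Among the 7 genes the nearest pair was Khk and Acss2 (0.196), followed by Mlx and Khk (0.269) and Pklr and Thrsp (0.378), and the farthest was Mlx and Aacs (1.49). Among all genes tested, those nearest to Pklr were Ak4 (0.0756) and Stard4 (0.110), the latter a carrier of cholesterol. Nearest to Thrsp were Wee1 (0.228) and Akr1c19 (0.309), and to Aacs Gm6614 (0.180) and Kcnk10 (0.276). Gm6614 and Kcnk10 had means of 0.886 ± 0.422 and 1.42 ± 0.386 CPM in WT (SD, n = 3 each). Their CgA-KO means, 0.0211 ± 0.0366 and 0.0820 ± 0.0161 CPM, were below the floor of 3 counts (0.0951 to 0.139 CPM in CgA-KO libraries). The distances to Aacs thus rest on very few counts. Khk was nearest to Haao (0.0671) and Lrrc28 (0.0732), Acss2 to Rpl30 (0.0982) and Fam83g (0.108), Mlx to Odc1 (0.0428), and Mlxipl to Zfp871 (0.134) and Dgkq (0.140). Thrsp and Aacs, with the largest decreases, had the farthest nearest neighbours (0.228 and 0.180). Distance did not follow the size of the change throughout. Pklr, at a log2 fold change of -1.91, had a closer neighbour (0.0756) than Mlxipl or Acss2, which changed less.

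The wider pathway was read from lists that leave out the 8 genes, some of which share genes such as Me1, Srebf1 and Hmgcs1. Of 9 partners of ChREBP and Mlx, 1 was called, Mlxip, which encodes the related glucose sensor MondoA. Its mean was 12.3 ± 4.75 CPM in WT and rose to 32.4 ± 15.6 CPM in CgA-KO (log2 fold change 1.4, edgeR adjusted p = 0.0491). The call was lost in 10 of the 16 other settings, among them the fits without WT replicate 2 or 3 or CgA-KO replicate 1 or 2. Over the fits without 1 library its value ran from 0.97 to 1.67 and its adjusted p reached 0.173.

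Of 26 tested genes of sugar entry and glycolysis, 3 were called lower and 3 higher, with a median of -0.06. Among the lower ones, Tkfc, which follows Khk in fructose breakdown, fell from 309 ± 41.8 to 151 ± 5.90 CPM (log2 fold change -1.03, edgeR adjusted p = 0.0152). The glucose carrier Slc2a2 (-0.80) was also lower and was named after its value was seen. The higher ones were the isoforms of other tissues Hk2 (2.63) and Pkm (2.07), and Akr1b3 (1.78), which makes sorbitol from glucose and was likewise named after its value was seen. Tkfc lost its call without WT replicate 3 or CgA-KO replicate 1 (adjusted p up to 0.0759), and Slc2a2 without WT replicate 2 or 3 or CgA-KO replicate 1 or 3, with scaling by library size alone and with all genes of at least 1 count (up to 0.127). The number called lower was 1 without WT replicate 3 or CgA-KO replicate 1, and 2 without WT replicate 2 or CgA-KO replicate 3.

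Among 21 other reported targets of ChREBP, 4 were called lower and 1 higher, with a median log2 fold change of -0.25. Gys2, the liver glycogen synthase, fell from 201 ± 60.1 to 65.4 ± 13.0 CPM (-1.62, edgeR adjusted p = 0.00985), and Mid1ip1, which encodes a partner of the Thrsp product, changed by -1.51 (adjusted p = 0.0124). G6pdx, the first enzyme of the pentose phosphate route, rose by 2.45 (adjusted p = 0.0039), from 3.35 ± 0.663 CPM. The other called genes, named after their values were seen, were Bhlhe40 (-1.05) and Ppp1r3b (-0.76). Bhlhe40 lost its call without WT replicate 2 or 3 or CgA-KO replicate 1 or 3 and with scaling by library size alone (adjusted p up to 0.126). Ppp1r3b lost it without any 1 of the 6 libraries (0.0571 to 0.15) and under the other scalings and filters, except DESeq2's size factors. In the fits without those 4 libraries, and with library size alone, 2 genes were called lower.

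Fatty acid synthesis from acetyl-CoA had 7 of 16 genes called, all lower, and a median of -0.88. 15 of the 16 log2 fold changes were below 0. Me1, which supplies NADPH, changed by -1.78 (edgeR adjusted p = 0.00603) and Fasn, the fatty acid synthase, by -1.74 (adjusted p = 0.00498), from 217 ± 45.8 to 64.8 ± 10.7 CPM. Both calls were kept in every other setting. The number called was 3 without WT replicate 3 and at a threshold of 0.01, 4 without CgA-KO replicate 2 and 5 to 8 in the other fits without 1 library. Acly, which makes cytosolic acetyl-CoA from citrate, was named after its value was seen and missed the call at -0.85 (adjusted p = 0.0548).

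Of 31 genes that supply or use acetyl-CoA, 5 were called lower and 2 higher, with a median of -0.33. The largest decreases were those of Hmgcs1 (-1.47, edgeR adjusted p = 0.012), the cytosolic enzyme that condenses acetyl-CoA with acetoacetyl-CoA, and Bdh2 (-1.39, adjusted p = 0.0147). Acat2 (-1.31), which makes cytosolic acetoacetyl-CoA as Aacs does, Idh1 (-1.0) and Bdh1 (-0.92) completed them and were named after their values were seen. Oxct1, which uses acetoacetate in tissues other than hepatocytes, rose by 2.22 (adjusted p = 0.00684) from 3.55 ± 1.12 CPM, and Slc16a1, a carrier of ketone bodies and lactate, by 0.77 (adjusted p = 0.0452). Hmgcs1 lost its call without CgA-KO replicate 1 (adjusted p = 0.0524) and Bdh2 without WT replicate 3 or CgA-KO replicate 1 (up to 0.0652). Idh1 did so without any 1 of WT replicates 2 and 3 and CgA-KO replicates 1 and 2 (up to 0.0916), Bdh1 without WT replicate 2 or 3 or CgA-KO replicate 1 or 3 and with library size alone (up to 0.147), and Slc16a1 in every fit without 1 library but that without WT replicate 2, with DESeq2's size factors and with the replicate block (up to 0.195). The number called lower was 2 without WT replicate 3 or CgA-KO replicate 1 and 3 without WT replicate 2, and it was 10 with DESeq2.

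The sterol genes under SREBP control, a class to which Aacs and Acss2 also belong, had 17 of 19 called, all lower, with a median of -1.53. All 19 log2 fold changes were below 0. The log2 fold change of Aacs, -3.38, was below that of each of these genes, while that of Acss2, -0.87, was nearer to the genes of fatty acid synthesis. These comparisons of size were not tested.

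**Figure D4:**
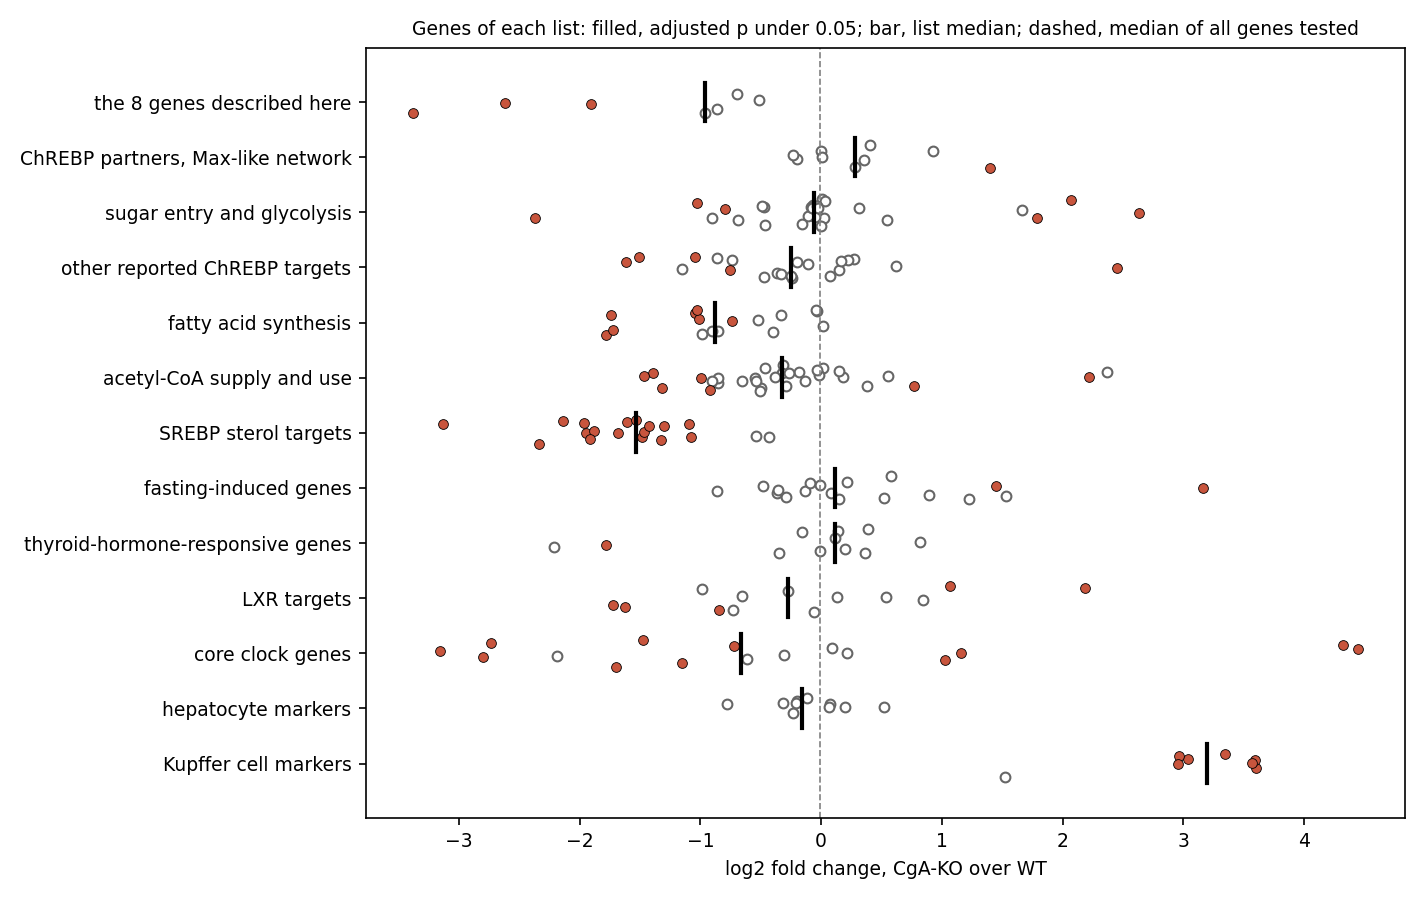
Log2 fold change, CgA-KO over WT, of each tested gene in the lists named at the left, filled where the adjusted p-value was under 0.05, with a bar at each list's median and a dashed line at the median of all genes tested (-0.01). The median is -0.96 for the 8 genes' tested members, -0.88 for fatty acid synthesis, -1.53 for SREBP sterol targets and 3.19 for Kupffer cell markers.

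Other lists cover states that are known to move these genes. For comparison, 12.4% of all genes tested were called by edgeR, 3.84% as lower and 8.60% as higher. Of 18 genes induced by fasting, 2 were called, both higher, Igfbp1 (3.16, edgeR adjusted p = 0.0125) and Cyp4a10 (1.45, adjusted p = 0.0373), and the median was 0.11. Igfbp1 lost its call without WT replicate 2 or 3 and with all genes of at least 1 count (adjusted p up to 0.103), and Cyp4a10 in every fit without 1 library but that without WT replicate 1, and with the replicate block (up to 0.162). Without WT replicate 1, 4 of the 18 were called higher. Of 11 thyroid-hormone-responsive genes, a class that includes Thrsp, only Me1 was called, and the median was 0.11. Of 13 genes of the LXR pathway, which controls Srebf1 and Mlxipl, 3 were lower and 2 higher, with a median of -0.28. Srebf1 changed by -1.73 (adjusted p = 0.0128) and Cyp7a1, the first enzyme of bile acid synthesis, by -1.63 (adjusted p = 0.0149), while Abcg1 (2.19) and Mylip (1.06) were higher. Abcg5 (-0.85) was named after its value was seen. Cyp7a1 lost its call without WT replicate 3 (adjusted p = 0.0691), Srebf1 without WT replicate 2 or 3 (up to 0.0553) and Mylip without WT replicate 2 or 3 or CgA-KO replicate 1 (up to 0.126). Abcg5 did so without WT replicate 2 or 3 or CgA-KO replicate 1 or 3, with library size alone and with the replicate block (up to 0.141). Without WT replicate 3 only Abcg1 was called of these 13.

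Genes of the core clock were called in both directions, 7 of 16 lower and 4 higher, with a median of -0.67. Arntl rose from 0.814 ± 0.383 to 16.8 ± 2.43 CPM (log2 fold change 4.44, edgeR adjusted p = 0.00164) and Npas2 by 4.32 (adjusted p = 0.00296), while Per3 changed by -3.16 (adjusted p = 0.00247) and Dbp by -2.80 (adjusted p = 0.0165). Dbp lost its call without WT replicate 2 or 3 or CgA-KO replicate 1 and with all genes of at least 1 count (adjusted p up to 0.112). In these 3 fits without 1 library the clock genes called were 5 lower and 2 higher without WT replicate 2, 4 and 3 without WT replicate 3, and 4 and 2 without CgA-KO replicate 1. Hepatic lipogenic genes are known to vary over the day, and the part of the clock genes' difference in that of the 8 genes was not tested.

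Hepatocyte markers were present at high levels and 0 of 10 were called by edgeR. Their summed level ran from 57977 to 99224 CPM in WT and from 50530 to 87332 CPM in CgA-KO, and the median log2 fold change was -0.16. At an unadjusted p under 0.05 edgeR's count was 1, DESeq2 called 1 of them lower, and limma-voom called 0. Kupffer cell markers had 7 of 8 called higher, with a median of 3.19 and sums of 107 to 266 CPM in WT against 1069 to 1711 CPM in CgA-KO. Among them Adgre1 rose by 3.61 (edgeR adjusted p = 0.00322) and Cd5l by 3.59 (adjusted p = 0.00322). Markers of lymphocytes (4 of 6 higher), neutrophils (2 of 3 tested higher) and stellate cells (2 of 6 higher) were called too, and of endothelial markers 1 was higher and 1 lower. The lymphocyte and neutrophil calls were not stable: limma-voom called 1 of 6 and 0 of 3, the fit on all genes of at least 1 count 1 of 6 and 0 of 6, and the fits without WT replicate 2 or 3 called 0 of either list. Neutrophil markers also had 0 calls without WT replicate 1, and stellate markers 0 without WT replicate 3 or CgA-KO replicate 1 or 2 and 1 without WT replicate 2. Without CgA-KO replicate 2 the calls were 2 of 6 lymphocyte and 1 of 3 neutrophil markers. The part of these cells in the levels of the 8 genes was not tested. Of the adipocyte markers, whose cells also use this pathway, Lep had 0 counts in every library and the sum was 6.27 to 23.9 CPM in WT and 10.4 to 18.6 CPM in CgA-KO.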

How the data were processed

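RNA of 3 WT and 3 CgA-KO livers, 1 library per mouse, was used, and genotype was taken from the labels. The authors quantified reads with Salmon 1.4.0 against the GRCm38 transcriptome and deposited counts, whole numbers per gene symbol that are not scaled for depth. How transcripts were brought to genes, and whether strand was used, is not given in the sources used here. Of the 32212 rows, 12519 were at 0 in every library and 78 repeated an earlier symbol.

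Genotypes were compared with edgeR 4.0.16 (R 4.3.3): filterByExpr with a minimum count of 10, TMM factors (0.756 to 1.12), robust quasi-likelihood fits, a two-sided test of genotype and Benjamini-Hochberg adjustment over the 13867 genes tested. The interval of a log2 fold change rests on an approximate standard error, the fold change divided by the root of its F statistic. Alternatives were DESeq2 1.42.0 (the authors' tool), limma-voom (limma 3.58.1), other scalings and filters, non-robust dispersion, a replicate block, a threshold of 0.01 and fits without 1 library. The procedure was also run on simulated counts with dispersions estimated from these data, and no result given here rests on that run. Positions and exon lengths are from GENCODE, promoter windows from RefSeq. Figures were drawn with matplotlib 3.10.9.

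The 8 genes and the 20 lists were chosen with earlier results of these data known. Besides the 8 genes, named were up to 2 called genes per list and direction with the largest change, or with none called the 2 of highest level, and the 2 genes nearest in pattern to each tested one. Some genes that this rule names are left out of the text.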

Additional observations from a re-analysis of the deposited data

How the results depend on the processing

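The direction of all 7 tested genes was kept in all 16 other settings. Among these, non-robust dispersion and the threshold of 0.01 left every log2 fold change of the 7 as it was, so they could not alter a direction. The number called was 3, but 6 with DESeq2, 4 with the replicate block and 3 to 5 in the fits without 1 library, 5 of them without WT replicate 1. With DESeq2 the log2 fold changes of Mlxipl, Khk and Acss2 were -0.98, -0.72 and -0.89 and passed the threshold. In the fits without 1 library they ran from -1.28 to -0.63 for Mlxipl, from -0.80 to -0.54 for Khk and from -0.98 to -0.58 for Acss2. Over all genes, 1726 calls became 2592 with DESeq2, 360 at a threshold of 0.01 and 394 to 2126 without 1 library, with 394 without WT replicate 3, 744 without CgA-KO replicate 1, 841 without WT replicate 2 and 976 without CgA-KO replicate 2. The cause was not tested.

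The labels do not say whether equal replicate numbers mark paired samples. Deviations from the group means correlated at 0.199, 0.0127 and -0.0659 for numbers 1, 2 and 3. The highest value was 0.234, for WT replicate 2 and CgA-KO replicate 3. With 3 livers a genotype, whose deviations are tied to each other, these values cannot decide whether the numbers pair the samples. With the number as a block, 1498 genes were called and Acss2 passed at -0.84.

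Of 320 list medians under other settings, 284 moved by less than the spread, 21 moved further and 15 changed sign. The 284 include the medians with non-robust dispersion and with the threshold of 0.01, which could not move. Scaling by library size alone, which moved the median of all genes to 0.26 and the share of calls that were higher from 69.1% to 86.6%, turned the medians of sugar entry and glycolysis (0.22), other ChREBP targets (0.042) and hepatocyte markers (0.15), and Alb (0.082) and Cyp2e1 (0.20), neither of them called. The adipocyte median, 0.28 from the 1 marker tested, was -0.47 with DESeq2 and -0.41 with genes of at least 1 count. Without 1 library, signs changed within -0.93 to 1.01 for adipocyte markers, -0.20 to 0.066 for sugar entry and glycolysis, -0.41 to 0.074 for hepatocyte markers, -0.050 to 1.03 for cholangiocyte markers, -0.029 to 0.21 for thyroid-hormone-responsive genes, and, of marker genes, -0.40 to 0.0053 for Alb, -0.54 to 0.11 for Cyp2e1, -0.085 to 1.01 for Fabp4 and -0.091 to 1.27 for Spp1.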

Other observations

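Other marker lists gave these values. Of endothelial markers, Lyve1 was higher in CgA-KO (log2 fold change 2.81, edgeR adjusted p = 0.00304) and Clec4g lower (-1.11, adjusted p = 0.0135). Dcn (0.99) and Reln (0.91) were higher among stellate markers, and Cd3e (3.6), Nkg7 (3.86), S100a8 (3.81) and S100a9 (3.55) among lymphocyte and neutrophil markers. Of the 3 erythroid markers tested, Slc4a1 was higher (3.08) and Alas2 lower (-1.09), and of the 5 cholangiocyte markers 0 were called by edgeR, DESeq2 or limma-voom (1 at an unadjusted p under 0.05, Sox9 0.82, edgeR adjusted p = 0.086). Of the 6 pancreas markers 4 had 0 counts in every library, and the 1 tested, Cela1, was not called (-1.13, adjusted p = 0.118). Leaving out WT replicate 3 ended the calls of all of these called genes but Lyve1 and Clec4g. WT replicate 1 did so for Dcn, Nkg7, S100a8 and S100a9, WT replicate 2 for Reln, Cd3e, Nkg7, S100a8, S100a9, Slc4a1 and Alas2, CgA-KO replicate 1 for Dcn, Reln, Slc4a1 and Alas2, CgA-KO replicate 2 for Dcn, Reln, Nkg7, S100a9, Slc4a1 and Alas2, and CgA-KO replicate 3 for Slc4a1, with adjusted p-values of up to 0.206 over these fits. Clec4g lost its call with scaling by library size alone (adjusted p = 0.0643), and Cd3e, Nkg7, S100a8 and S100a9 theirs with limma-voom and with all genes of at least 1 count.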
